A study of Mus musculus with 22 samples.

Results

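DZNep and Valproate were compared directly here, as the 2 libraries treated with each, which make 4 of the 22 RNA-seq libraries of the series. The libraries were taken by their treatment labels, but the pair of compounds was picked as the 2 with the strongest effects in earlier results of these data, so the number of genes each moved from NC is a description. All 22 libraries came from E14, an established mouse embryonic stem cell line. The study's methods, in which the compounds are not named, describe its stem cells as grown in serum with LIF. They hold 10 compounds and a reference group labelled NC, with 2 libraries each, and poly(A) RNA was sequenced. The 2 NC libraries serve below to show which compound moved a gene. The labels and the methods give neither the dose nor the duration of any treatment, so each difference is between the 2 treatments as they were applied and not between matched doses. Nothing in the labels says that the libraries of a group came from separate cultures, so the p-values measure only the spread between these libraries, which may be technical.

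DZNep (3-deazaneplanocin A) is an adenosine analogue that inhibits S-adenosylhomocysteine hydrolase, the enzyme AHCY. The substrate that then builds up is a general inhibitor of methyltransferases, and the compound is best known for lowering histone H3 lysine 27 methylation by EZH2, the catalytic subunit of Polycomb repressive complex 2. Valproate is a small branched fatty acid that inhibits class I histone deacetylases such as HDAC1 and HDAC2, and treated cells gain acetylated histones. Both compounds are therefore used to lift gene silencing, through different chromatin marks.

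The values are read counts that the authors normalized so that every library has the same distribution, with a median of 409 in each, and the sequencing depth of a library can no longer be seen in them. The 10 stem cell markers were read in all 6 libraries of DZNep, Valproate and NC. Their summed value was 307233 and 296802 with DZNep, 271848 and 277227 with Valproate and 248087 and 240917 with NC. The fibroblast marker sums lay between 817 and 2165 in these 6 libraries, and the defining fibroblast gene Dcn was at 0 in all of them. Trophoblast marker sums ran from 3378 to 6151, blood marker sums from 427 to 1449 and neural marker sums from 3429 to 5271. Single markers were called in the direct test described below in both directions. Of 9 fibroblast markers tested, Lum (0 with DZNep and NC, 197 and 331 with Valproate) and Thy1 (66 and 64 with DZNep, 358 and 303 with Valproate) were higher with Valproate and Col1a1 was higher with DZNep. A gene had to reach 10 in 2 or more libraries to be tested. Among these 3 groups Lum did so only with Valproate, so its call is a description. Of 5 blood markers tested, Cd68 (452 and 474 with DZNep, 120 and 76 with Valproate) and Spi1 (247 and 177 with DZNep, 114 and 52 with Valproate) were higher with DZNep. The blood marker Itgam (30 and 35 with DZNep, 56 and 59 with Valproate) lay the other way and was not called. Of 8 trophoblast markers, Krt8 was higher with DZNep and Krt18 with Valproate, and of 6 neural markers, Nes and Map2 were higher with Valproate. The neural marker Tubb3 (3331 and 4333 with DZNep, 1431 and 2582 with Valproate) lay the other way and was not called. The defining blood gene Ptprc was at 438 in DZNep library 2 and at 0 in the other 5. Their part in the results below was not tested. Fewer cells of a type and less RNA per cell cannot be told apart in such bulk libraries.

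The direct comparison separated the compounds at many genes. A gene was called where limma's moderated test gave a Benjamini-Hochberg adjusted p under 0.05 and the fold change was over 2, and 1861 of the 17275 genes tested were called (10.8%). Of these, 838 (4.85%) were higher with DZNep and 1023 (5.92%) were higher with Valproate. All differences below are DZNep minus Valproate on the log2(value + 1) scale, given with the standard error, so that a negative value means more RNA with Valproate. NC cancels out of this difference, and the same test therefore also asks whether the 2 compounds moved a gene by different amounts. The libraries of the 2 compounds did not overlap at 1860 of the 1861 genes. Over all genes tested, the DZNep libraries lay above the Valproate libraries at 25% and below them at 26.3%. The median difference over all genes was -0.03. Leaving out Valproate library 1 lowered the number of calls to 1153, and leaving out each of the other 3 libraries in turn gave between 1601 and 1993.

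**Figure D1:**
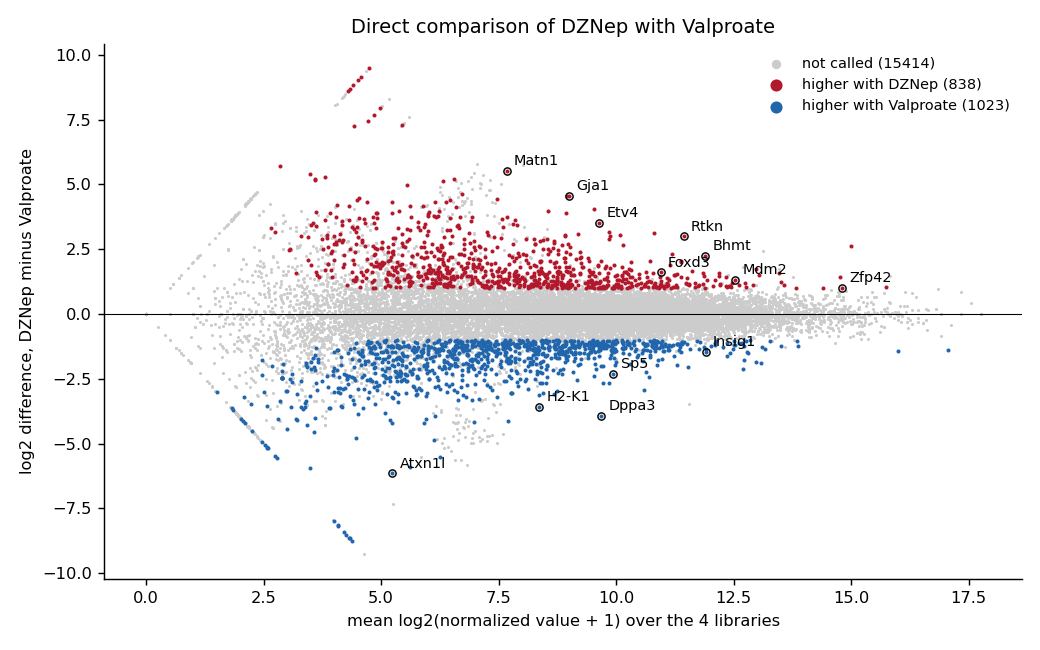
Each point is 1 of the 17275 genes tested. The horizontal axis gives its mean log2(normalized value + 1) over the 2 DZNep and 2 Valproate libraries, and the vertical axis gives the log2 difference, DZNep minus Valproate. The 838 genes called higher with DZNep are red and the 1023 called higher with Valproate are blue, and the diagonal strings of points are genes listed at 0 in both libraries of 1 compound.

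Set against NC, DZNep was more often the compound that had moved. DZNep against NC gave 1970 calls (11.4%), 910 up (5.27%) and 1060 down (6.14%). Valproate against NC gave 912 calls (5.28%), 471 up (2.73%) and 441 down (2.55%). Without NC library 1 these became 1187 and 514, and without Valproate library 1 the 912 became 572. Of the 838 genes higher with DZNep, 366 were called up against NC with DZNep and not called with Valproate, 127 were called down with Valproate and not called with DZNep, and 10 were called in both of these ways at once. A further 298 were called against NC with neither compound. Of the 1023 genes higher with Valproate, 464 were called down with DZNep alone, 147 were called up with Valproate alone, 14 were called in opposite directions and 378 were called with neither. The change from NC was the larger one with DZNep at 67.8% of the genes higher with DZNep and at 67.4% of those higher with Valproate. These 2 comparisons share their NC libraries, so their values are given side by side and no relation between them was computed.

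The genes with the largest excess with DZNep were mostly low in the other libraries. Matn1 (ENSMUSG00000040533, chr4:130944385-130955475, plus strand, mm10), a cartilage matrix protein, was at 1887 and 1015 with DZNep, 24 and 35 with Valproate and 63 and 67 with NC. Matn1 differed by 5.53 ± 0.54 (limma adjusted p = 2.31e-05), and its other 16 libraries, those of the 8 remaining compounds, lay between 25 and 225. Ltb4r2, a leukotriene receptor, was at 465 and 477 with DZNep, 8 and 19 with Valproate and 27 and 42 with NC. Ltb4r2 differed by 5.14 ± 0.53 (limma adjusted p = 3.23e-05), and the DZNep values again lay above those of all other libraries.

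Membrane transport and cell contact genes were among them. Gja1 (ENSMUSG00000050953, chr10:56377330-56402513, plus strand, mm10), which encodes the gap junction protein connexin 43, was at 2877 and 2167 with DZNep, 62 and 176 with Valproate and 62 and 152 with NC. Gja1 differed by 4.56 ± 0.65 (limma adjusted p = 0.000329), with Valproate and NC overlapping each other. Slc5a1, the intestinal sodium and glucose cotransporter, was at 2478 and 2343 with DZNep, 74 and 140 with Valproate and 61 and 174 with NC. Slc5a1 differed by 4.55 ± 0.75 (limma adjusted p = 0.00088), and here too the Valproate values lay inside the NC range. Ms4a10, a membrane protein of the MS4A family, was at 343 and 202 with DZNep, 4 and 13 with Valproate and 7 and 6 with NC, a difference of 4.98 ± 0.56 (limma adjusted p = 6e-05). Nkx2-9, a homeobox gene of the ventral neural tube, was at 777 and 871 with DZNep, 23 and 58 with Valproate and 22 and 40 with NC, a difference of 4.45 ± 0.70 (limma adjusted p = 0.000625). All 4 genes stood out with DZNep and stayed near NC with Valproate. The forkhead gene Foxn4 was at 410 and 792 with DZNep, 4 and 47 with Valproate and 214 and 283 with NC, where the low values were those of Valproate. Foxn4 differed by 5.20 ± 1.22 (limma adjusted p = 0.0082), but the call was lost without DZNep library 2 (4.73 (limma adjusted p = 0.0539)) and without Valproate library 1 (3.57 (limma adjusted p = 0.107)).

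Other genes higher with DZNep were named for their low p-values, which rest on a spread shared over all 11 groups. Cbr3, a carbonyl reductase, was at 3095 and 3189 with DZNep, 309 and 454 with Valproate and 659 and 695 with NC. Cbr3 differed by 3.06 ± 0.18 (limma adjusted p = 1.53e-06), with DZNep above NC and Valproate below it. Rtkn, an effector of small GTPases that shares 37% of its sequence with other genes and overlaps Wdr54 on the opposite strand, was at 8100 and 7666 with DZNep, 771 and 1249 with Valproate and 1600 and 1712 with NC, a difference of 3.0 ± 0.21 (limma adjusted p = 4.59e-06). Ddit4l, an inhibitor of the growth kinase mTOR, was at 1389 and 1360 with DZNep, 229 and 297 with Valproate and 300 and 384 with NC, a difference of 2.39 ± 0.17 (limma adjusted p = 4.59e-06). In all 3, neither compound overlapped the other.

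Atxn1l (ENSMUSG00000069895, chr8:109726451-109737739, minus strand, mm10), a partner of the repressor CIC, had the largest excess with Valproate among genes that met the naming conditions. It was at 4 and 3 with DZNep, 403 and 249 with Valproate and 162 and 97 with NC. Atxn1l differed by -6.15 ± 0.41 (limma adjusted p = 2.74e-06) and by -4.82 ± 0.41 (limma adjusted p = 7.52e-06) between DZNep and NC, and its DZNep values were the lowest of all 22 libraries. Across the 16 libraries of the other compounds Atxn1l stayed between 36 and 325. Dppa3 (ENSMUSG00000046323, chr6:122626410-122630272, plus strand, mm10), which encodes the maternal factor STELLA, had the opposite pattern. It was at 220 and 199 with DZNep, 3544 and 2894 with Valproate and 194 and 160 with NC, and differed by -3.93 ± 0.64 (limma adjusted p = 0.000819) and by 4.18 ± 0.64 (limma adjusted p = 0.00132) between Valproate and NC. At Dppa3 DZNep was not called against NC (0.25 ± 0.64 (limma adjusted p = 0.823)), and 31.8% of its sequence is shared with other genes.

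Other genes of this group were lower with DZNep than in NC, higher with Valproate, or both. H2-K1, a classical class I antigen-presenting molecule, was at 78 and 114 with DZNep, 1110 and 1152 with Valproate and 548 and 617 with NC. H2-K1 differed by -3.57 ± 0.20 (limma adjusted p = 1.53e-06), with DZNep below and Valproate above both NC libraries, and 22.5% of its sequence is shared with related genes. Tex13b, a testis gene on the X chromosome, was at 135 and 129 with DZNep, 880 and 797 with Valproate and 223 and 165 with NC, a difference of -2.66 ± 0.16 (limma adjusted p = 1.53e-06). Lmx1b, a homeobox gene of limb and midbrain, was at 8 and 25 with DZNep, 255 and 249 with Valproate and 572 and 182 with NC, a difference of -4.05 ± 0.52 (limma adjusted p = 0.000149). Catsperg1, a subunit of the sperm calcium channel, was at 10 and 6 with DZNep, 264 and 97 with Valproate and 32 and 26 with NC, a difference of -4.20 ± 0.70 (limma adjusted p = 0.000926), and 54.3% of its sequence is shared. Entpd2, an enzyme that breaks down extracellular ATP, was at 10 and 17 with DZNep, 476 and 139 with Valproate and 106 and 78 with NC, a difference of -4.20 ± 0.79 (limma adjusted p = 0.00211). Tmem254c and Duxbl3, which share 100% and 99% of their sequence with other genes, met the same rule, but each lost its call when single libraries were left out. Tmem254c was at -1.36 without DZNep library 1 (limma adjusted p = 0.25), and Duxbl3 was at -2.25 without DZNep library 2 (limma adjusted p = 0.309).

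**Figure D2:**
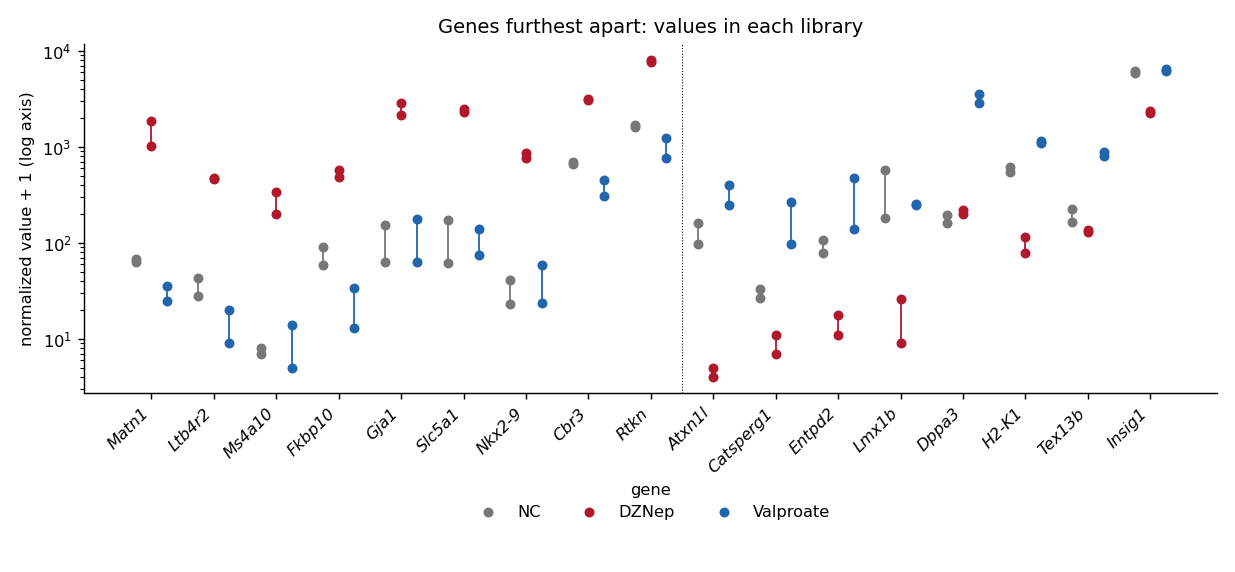
Normalized value + 1 (log axis) of 17 genes named in the text, with 1 point for each library, a line joining the 2 libraries of a group, NC in grey, DZNep in red and Valproate in blue. Left of the dotted line the DZNep points are the highest of each gene, from 202 for Ms4a10 to 8100 for Rtkn, and right of it the DZNep points lie below those of Valproate.

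A few genes were called against NC in opposite directions, 10 with DZNep up and Valproate down (0.0579% of the genes tested) and 14 with DZNep down and Valproate up (0.081%). Without Valproate library 1, NC library 1 or NC library 2, the 24 became 10, 10 and 9. Fkbp10, a collagen chaperone whose exons overlap Nt5c3b on the other strand, was at 483 and 573 with DZNep, 12 and 33 with Valproate and 58 and 89 with NC, a direct difference of 4.65 ± 0.40 (limma adjusted p = 1.15e-05). Ssc5d, a secreted scavenger receptor, was at 363 and 450 with DZNep, 17 and 28 with Valproate and 78 and 68 with NC, a direct difference of 4.15 ± 0.30 (limma adjusted p = 4.59e-06). In both genes the 2 NC libraries lay between the compounds. Ffar2, a receptor for short-chain fatty acids, was at 265 and 221 with DZNep, 10 and 24 with Valproate and 58 and 50 with NC. The ammonium transporter gene Rhbg, with 60.8% shared sequence, was at 447 and 440 with DZNep, 61 and 45 with Valproate and 129 and 102 with NC. Of the genes that went the other way, Mapk13, a p38 stress kinase, was at 33 and 56 with DZNep, 518 and 343 with Valproate and 144 and 113 with NC, a direct difference of -3.26 ± 0.33 (limma adjusted p = 2.75e-05). Spock2, a matrix proteoglycan, was at 54 and 60 with DZNep, 671 and 431 with Valproate and 306 and 140 with NC. Tspan2, a tetraspanin, was at 35 and 37 with DZNep, 436 and 264 with Valproate and 93 and 77 with NC. Cnn2, an actin-binding calponin, was at 135 and 146 with DZNep, 1785 and 797 with Valproate and 379 and 687 with NC, and NC lay between the compounds in these 4 as well.

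Gene lists showed where the differences fell. In 35 lists written from general knowledge, calls were counted beside the 10.8% of all genes. The lists were chosen with earlier results of these data known, so their shares are descriptions. The share was 39.1% among 23 genes of core and formative pluripotency, 35% among 20 WNT targets, 34.6% among 26 p53 targets and 33.3% among 24 interferon and antigen presentation genes. It was 21.7% among 23 cholesterol synthesis genes. Without Valproate library 1 the calls fell from 9 to 5 in the pluripotency list, from 7 to 3 among WNT targets and from 8 to 4 among interferon and antigen genes, and without DZNep library 1 from 5 to 2 among cholesterol genes. In the lists for DNA replication (40 genes), mitosis (32), ribosome biogenesis (40) and cytosolic ribosomal proteins (41), 0 genes were called by limma. At an adjusted p under 0.05 without the fold limit, these 4 lists held 1, 7, 7 and 1 genes, and at an unadjusted p under 0.05 they held 6, 13, 13 and 4. Of all 17275 genes tested, 4000 passed the first of these limits and 6011 the second.

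**Figure D3:**
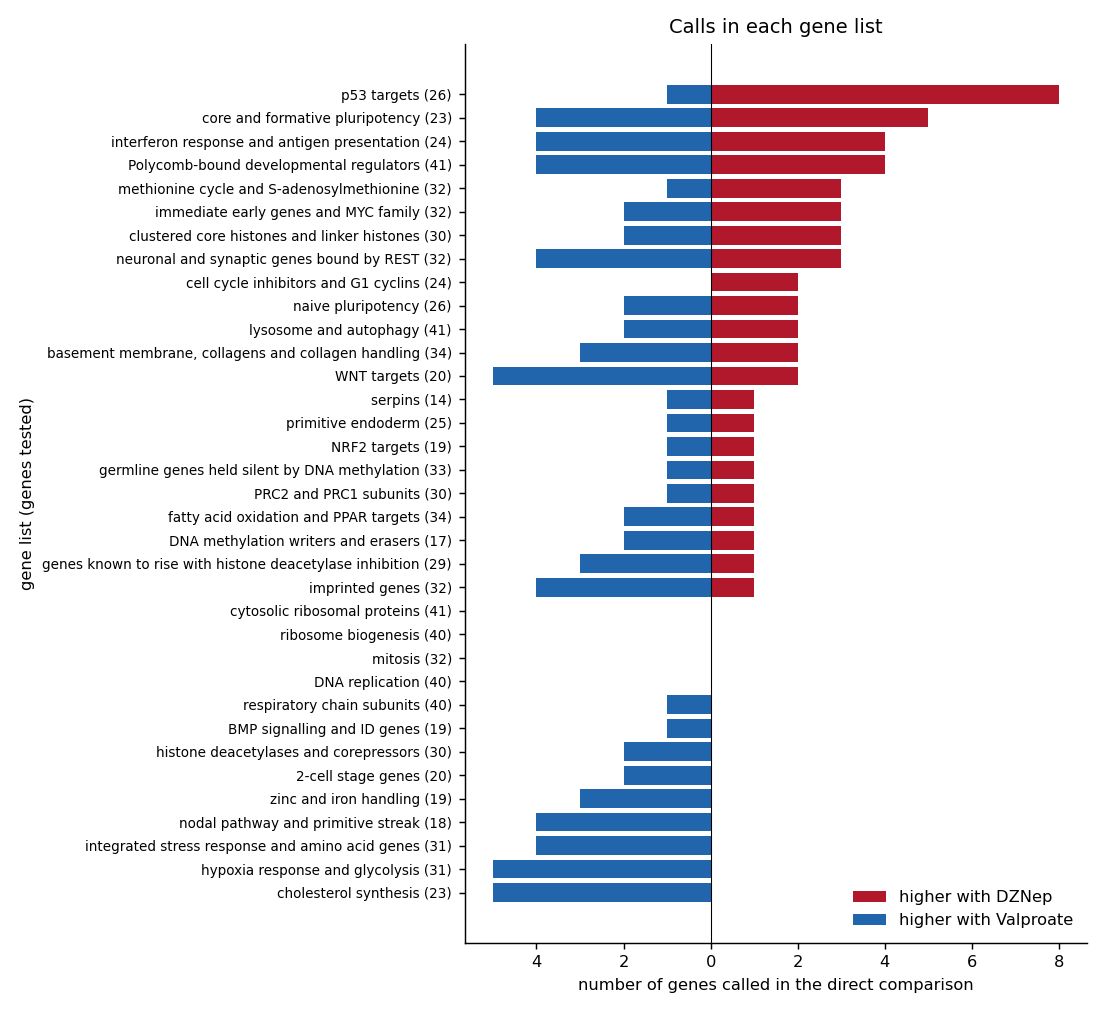
Number of genes called in the direct comparison in each of 35 gene lists, with genes higher with DZNep to the right in red and genes higher with Valproate to the left in blue. The number of genes tested stands in parentheses, and the p53 list has the longest bar to the right with 8 genes while the cholesterol list has 5 genes to the left and 0 to the right.

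Cholesterol synthesis genes were lower with DZNep than with Valproate almost without exception. The pathway makes cholesterol from acetyl-CoA, and its genes are switched on together by the transcription factor SREBP2 when cell sterol falls, with NFY at CCAAT boxes as a partner. Of 23 genes tested, 22 had a lower mean log2 value with DZNep, beside 8956 of all 17275 genes. In the list limma called 5 lower and 0 higher. At any fold, 15 of the 23 were lower at an adjusted p under 0.05, and 17 were lower and 0 higher at an unadjusted p under 0.05. Of all 17275 genes tested, 2138 and 3123 were lower with DZNep at these 2 limits. The median difference of the 23 genes was -0.60, against -0.03 for all genes, and stayed between -0.77 and -0.45 under 11 alternative settings. Against NC, 13 of the 23 were called down with DZNep and 2 with Valproate, beside 6.14% and 2.55% of all genes tested.

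Insig1 (ENSMUSG00000045294, chr5:28071363-28078662, plus strand, mm10), which encodes the protein that holds SREBP in the endoplasmic reticulum and is itself an SREBP target, was at 2238 and 2392 with DZNep, 6181 and 6554 with Valproate and 5852 and 6227 with NC. Insig1 differed by -1.46 ± 0.09 (limma adjusted p = 2.04e-06), and its 16 libraries with the other compounds lay between 5030 and 7085, above both DZNep values. Dhcr7, the enzyme of the last step, was at 1249 and 1335 with DZNep, 3185 and 3085 with Valproate and 3157 and 3291 with NC. Dhcr7 differed by -1.28 ± 0.12 (limma adjusted p = 2.16e-05), while Valproate and NC overlapped. Fdps, the farnesyl diphosphate synthase, was at 3102 and 4914 with DZNep, 8179 and 10033 with Valproate and 8622 and 9700 with NC, a difference of -1.21 ± 0.23 (limma adjusted p = 0.00219). Sqle, the squalene epoxidase, was at 3057 and 4106 with DZNep, 7425 and 8010 with Valproate and 5580 and 6151 with NC, a difference of -1.12 ± 0.20 (limma adjusted p = 0.00141). Nsdhl, which removes methyl groups from the sterol ring, was at 253 and 489 with DZNep, 720 and 960 with Valproate and 1530 and 1939 with NC, a difference of -1.24 ± 0.33 (limma adjusted p = 0.0162), and Valproate was itself under NC here. Without DZNep library 1 only Insig1 and Dhcr7 kept their calls, and Fdps, Sqle and Nsdhl stood at -0.88, -0.91 and -0.76. Nsdhl was also lost without Valproate library 2, at -1.03 (limma adjusted p = 0.0931). Hmgcs1, an early enzyme of the pathway, was at 5332 and 4853 with DZNep, 8109 and 6847 with Valproate and 9529 and 11505 with NC and did not reach the fold limit (-0.55 ± 0.12 (limma adjusted p = 0.00531)). Ebp, a sterol isomerase, was the exception to the direction, at a difference of 0.16 ± 0.32 (limma adjusted p = 0.795).

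The promoter windows of 15 of these 23 genes were in the RefSeq table (build GRCm38.p6), in 18 windows. The letters CCAAT, searched on both strands, were in 15 of the 18 windows (83.3%) and in at least 1 window of all 15 genes, against 37.4% of all 32851 windows. The core of the sterol regulatory element, TCACNCCAC, was in 1 of the 18 windows, that of Hmgcs1, and in 1.24% of all windows. None of the motifs searched contains another. Windows of Insig1 (chr5:28071162-28071461, plus strand), Dhcr7 (chr7:143829964-143830263, plus strand) and Nsdhl (chrX:72918271-72918570, plus strand) are shown as those of genes called lower with DZNep than with Valproate, with CCAAT or its reverse complement in capitals. They hold 1, 2 and 4 matches, the other 2 of the 3 Dhcr7 windows hold 0, and the one of Insig1 begins at position -216 from the start.
Insig1: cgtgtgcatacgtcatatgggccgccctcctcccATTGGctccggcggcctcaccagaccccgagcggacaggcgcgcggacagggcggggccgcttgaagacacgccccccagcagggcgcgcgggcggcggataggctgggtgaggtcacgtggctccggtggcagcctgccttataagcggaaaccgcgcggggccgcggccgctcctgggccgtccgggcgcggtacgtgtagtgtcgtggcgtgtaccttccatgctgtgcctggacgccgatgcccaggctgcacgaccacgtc
Dhcr7: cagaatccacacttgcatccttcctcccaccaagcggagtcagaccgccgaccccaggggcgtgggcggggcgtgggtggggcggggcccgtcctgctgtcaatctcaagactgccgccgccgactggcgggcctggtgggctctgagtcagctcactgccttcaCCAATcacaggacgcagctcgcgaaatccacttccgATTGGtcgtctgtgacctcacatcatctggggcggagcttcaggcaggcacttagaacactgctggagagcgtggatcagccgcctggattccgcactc
Nsdhl: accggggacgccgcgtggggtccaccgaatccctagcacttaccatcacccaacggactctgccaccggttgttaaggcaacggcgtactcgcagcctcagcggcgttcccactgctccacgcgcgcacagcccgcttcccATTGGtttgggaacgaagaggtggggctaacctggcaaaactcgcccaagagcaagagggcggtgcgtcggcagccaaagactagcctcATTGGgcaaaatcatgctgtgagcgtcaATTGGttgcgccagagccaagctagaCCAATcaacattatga

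Targets of the tumour suppressor p53 formed the opposite case. p53 is stabilized by DNA damage and other stress and turns on genes of cell cycle arrest, death and its own degradation. Of 26 targets tested, 24 had a higher mean log2 value with DZNep, beside 8210 of all 17275 genes, and 8 targets were called higher and 1 lower. At an adjusted p under 0.05 at any fold, 14 of the 26 were higher with DZNep, beside 1862 of all 17275 genes tested. The median difference of the 26 targets was 0.73 and ranged from 0.52 to 0.76 under 11 alternative settings. Against NC, 8 were called up with DZNep and 0 down, and 1 was called up and 1 down with Valproate. Over all genes tested, 5.27% were called up and 6.14% down with DZNep, and 2.73% up and 2.55% down with Valproate.

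Perp (ENSMUSG00000019851, chr10:18845020-18857073, plus strand, mm10), a membrane protein of p53-dependent death and of desmosomes, was at 2994 and 2577 with DZNep, 264 and 357 with Valproate and 143 and 248 with NC. Perp differed by 3.17 ± 0.31 (limma adjusted p = 2.48e-05), with no overlap between DZNep and the other 4 libraries. Plk2, a kinase of the centriole cycle, was at 6342 and 4578 with DZNep, 1134 and 1547 with Valproate and 997 and 897 with NC, a difference of 2.02 ± 0.26 (limma adjusted p = 0.000147). Mdm2 (ENSMUSG00000020184, chr10:117688875-117710758, minus strand, mm10), the ubiquitin ligase that degrades p53, was at 11537 and 7585 with DZNep, 3935 and 3559 with Valproate and 3393 and 3160 with NC. Mdm2 differed by 1.32 ± 0.25 (limma adjusted p = 0.002), again with DZNep clear of Valproate and NC. The mitotic gene Gtse1, Phlda3, Ckap2 and the cyclin Ccng1 were also called higher with DZNep, by between 1.01 and 1.31. Single libraries decided several of these calls. Without DZNep library 1, Ckap2 stood at 0.84 (limma adjusted p = 0.0601) and Ccng1 at 0.69 (limma adjusted p = 0.105), and Ccng1 was also lost without Valproate library 2 (0.94 (limma adjusted p = 0.0565)). Without Valproate library 1, Gtse1 stood at 0.92 (limma adjusted p = 0.0121) and Phlda3 at 0.71 (limma adjusted p = 0.0264), and Phlda3 was also lost without DZNep library 2 (0.88 (limma adjusted p = 0.024)).

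Not every target followed. Gdf15, a stress hormone, was at 1148 and 1391 with DZNep, 611 and 442 with Valproate and 2582 and 1801 with NC, so that its call of 1.28 ± 0.26 (limma adjusted p = 0.00301) came with Valproate lying below both other groups. Pmaip1, the death gene NOXA, was at 216 and 197 with DZNep, 635 and 402 with Valproate and 139 and 107 with NC and was called the other way at -1.29 ± 0.32 (limma adjusted p = 0.0119). Pmaip1 fell under the threshold without DZNep library 2 (-1.22 (limma adjusted p = 0.0596)) and without Valproate library 1 (-0.96 (limma adjusted p = 0.129)). Cdkn1a, the cell cycle inhibitor p21 that is the best known target, was at 6843 and 6634 with DZNep, 8038 and 7963 with Valproate and 6054 and 5364 with NC. Cdkn1a was highest with Valproate, yet the direct difference was only -0.25 ± 0.10 (limma adjusted p = 0.0974). The p53 gene itself, Trp53, was at 13113 and 14112 with DZNep, 7573 and 12565 with Valproate and 10193 and 12565 with NC, and the compounds did not differ beyond the spread (0.48 ± 0.20 (limma adjusted p = 0.104)).

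**Figure D4:**
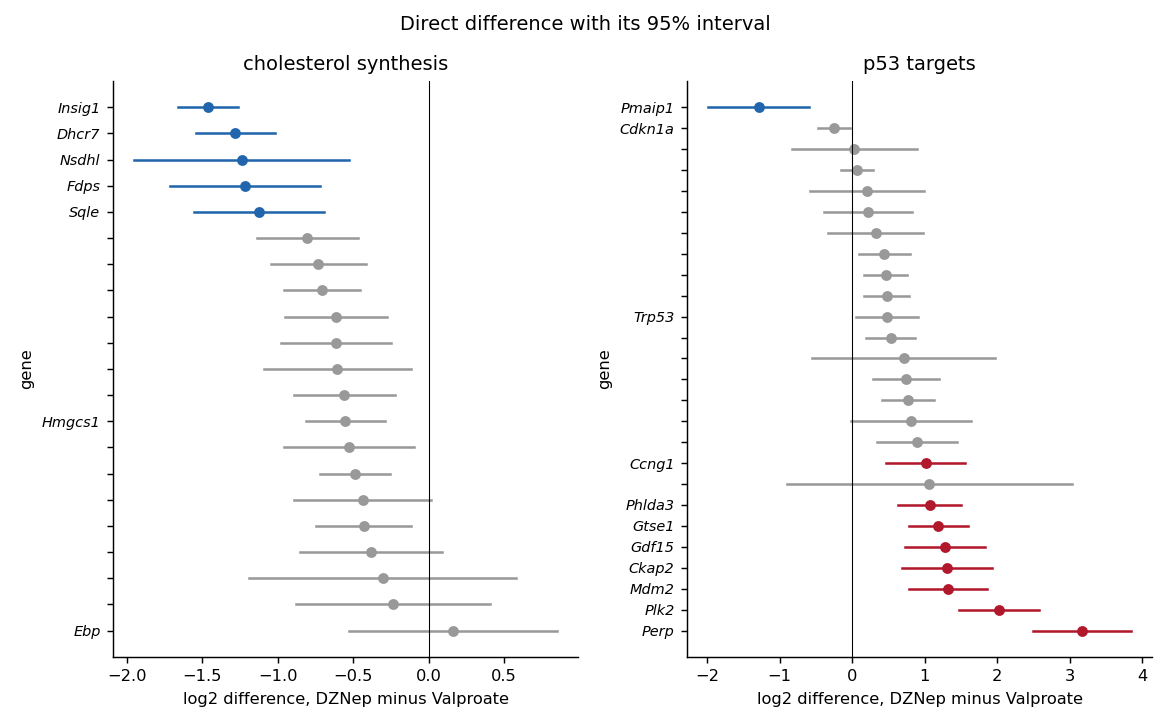
Log2 difference, DZNep minus Valproate, with its 95% interval for the cholesterol synthesis genes and the p53 targets, leaving out genes not reported here, with genes named in the text labelled and called genes in red where DZNep was higher and in blue where Valproate was higher. All plotted cholesterol genes except Ebp lie left of 0, and all plotted p53 targets except Pmaip1 and Cdkn1a lie right of it.

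Promoter windows were found for 20 of the 26 p53 targets, 28 windows in all. The p53 half-site, searched on both strands, was in 12 of them (42.9%), against 8.36% of all windows, and in 11 of the 20 genes. The same letters were in 5 of the 18 cholesterol windows (27.8%) and in 0 of the 19 WNT target windows. CCAAT was in 16 of the 28 p53 target windows (57.1%). The windows of Mdm2 (chr10:117710709-117711008, minus strand, RefSeq, GRCm38.p6) and Ccng1 (chr11:40755237-40755536, minus strand) are shown as those of called genes with a match, which is in capitals and begins at positions -186 and -185 from the start.
Mdm2: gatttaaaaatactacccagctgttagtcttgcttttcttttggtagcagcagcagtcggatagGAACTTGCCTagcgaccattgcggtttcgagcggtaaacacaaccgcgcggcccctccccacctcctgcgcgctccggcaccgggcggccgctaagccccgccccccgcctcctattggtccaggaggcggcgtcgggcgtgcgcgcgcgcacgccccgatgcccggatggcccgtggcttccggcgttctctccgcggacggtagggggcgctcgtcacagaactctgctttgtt
Ccng1: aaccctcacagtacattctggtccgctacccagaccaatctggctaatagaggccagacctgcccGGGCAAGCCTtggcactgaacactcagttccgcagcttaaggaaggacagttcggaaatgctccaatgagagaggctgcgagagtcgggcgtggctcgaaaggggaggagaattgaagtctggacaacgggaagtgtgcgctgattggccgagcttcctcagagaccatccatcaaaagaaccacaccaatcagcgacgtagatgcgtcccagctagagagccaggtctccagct

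Several genes that read out FGF and ERK signalling were low with Valproate. This pathway is set off by FGF4 in stem cells and prepares them to leave the naive state, and ETV4, ETV5, DUSP6 and the Sprouty proteins are its usual readouts. Etv4 (ENSMUSG00000017724, chr11:101769742-101785371, minus strand, mm10), an ETS factor, was at 2323 and 3170 with DZNep, 134 and 408 with Valproate and 3169 and 4442 with NC. Etv4 differed by 3.53 ± 0.44 (limma adjusted p = 0.000119), and Valproate lay far below DZNep and NC, which overlapped. Dusp6, the phosphatase of ERK, was at 252 and 216 with DZNep, 61 and 67 with Valproate and 148 and 200 with NC, a difference of 1.85 ± 0.20 (limma adjusted p = 4.89e-05). Spry4, a Sprouty inhibitor of the pathway, was at 47 and 18 with DZNep, 4 and 2 with Valproate and 26 and 32 with NC, a difference of 2.96 ± 0.44 (limma adjusted p = 0.000414). In Dusp6 and Spry4 the Valproate libraries were likewise the lowest of the 6. Against NC, all 3 were called down with Valproate, where Dusp6 fell by 1.41 and Spry4 by 2.95 on the log2 scale, and none of the 3 was called with DZNep. The readouts did not move as a block. Etv5 was at 25722 and 20768 with DZNep, 13634 and 15640 with Valproate and 19257 and 18790 with NC and stayed under the fold limit (0.66 ± 0.13 (limma adjusted p = 0.00311)), and Spry2 was at 837 and 557 with DZNep, 920 and 556 with Valproate and 475 and 406 with NC, a difference of -0.07 ± 0.27 (limma adjusted p = 0.927).

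The list that holds these genes, core and formative pluripotency, split both ways, with 5 of 23 called higher with DZNep and 4 with Valproate. Its other genes on the DZNep side were Otx2 and Foxd3, transcription factors of the formative and primed states. Foxd3 was at 3607 and 3335 with DZNep, 958 and 1321 with Valproate and 773 and 811 with NC, a difference of 1.62 ± 0.18 (limma adjusted p = 5.11e-05) in which DZNep was the group that had moved. Otx2 was at 551 and 390 with DZNep, 82 and 206 with Valproate and 404 and 338 with NC, a difference of 1.83 ± 0.45 (limma adjusted p = 0.0105) in which Valproate was low. On the Valproate side, beside Lef1, which is described with the WNT targets, the neural factor gene Sox3 was at 32 and 106 with DZNep, 263 and 592 with Valproate and 157 and 185 with NC, and the RNA-binding protein gene Lin28a was at 346 and 234 with DZNep, 973 and 636 with Valproate and 201 and 477 with NC. The de novo DNA methyltransferase gene Dnmt3a was at 185 and 225 with DZNep, 942 and 1108 with Valproate and 572 and 613 with NC, a difference of -2.32 ± 0.61 (limma adjusted p = 0.0147). Several of these calls rested on single libraries. Otx2 was lost without DZNep library 1 (1.58) or Valproate library 1 (1.17), and Sox3 without DZNep library 1 (-1.89) or Valproate library 2 (-2.15). Lin28a was lost without DZNep library 2 (-1.18) or Valproate library 1 (-1.16). Dnmt3a kept its size but not its call without DZNep library 1 (-2.18), Valproate library 1 (-2.44) or Valproate library 2 (-2.20).

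Of 20 WNT targets, 5 were called higher with Valproate and 2 with DZNep, and without DZNep library 2 or Valproate library 1 the 7 calls became 4 and 3. The pathway stabilizes beta-catenin, which with TCF and LEF factors turns on targets that include its own inhibitors, and it supports self-renewal of mouse stem cells. Sp5 (ENSMUSG00000075304, chr2:70474923-70477729, plus strand, mm10), a zinc finger factor that is a direct target, was at 565 and 347 with DZNep, 2216 and 2141 with Valproate and 376 and 390 with NC. Sp5 differed by -2.30 ± 0.32 (limma adjusted p = 0.000311), and DZNep overlapped NC while both Valproate libraries were far above. Nkd2, an inhibitor of Dishevelled, was at 4 and 8 with DZNep, 58 and 74 with Valproate and 32 and 30 with NC, a difference of -3.31 ± 0.36 (limma adjusted p = 4.72e-05) with DZNep below NC. Lef1, a transcription factor of the pathway, was at 113 and 71 with DZNep, 350 and 194 with Valproate and 29 and 42 with NC. Lef1 was called up against NC with both compounds and still differed by -1.53 ± 0.39 (limma adjusted p = 0.0136), though not without DZNep library 2 (-1.20) or Valproate library 1 (-1.11). Axin2, the scaffold that limits beta-catenin, was at 1117 and 454 with DZNep, 1999 and 1588 with Valproate and 766 and 814 with NC. Axin2 differed by -1.32 ± 0.36 (limma adjusted p = 0.0185), and the call was lost without DZNep library 2 (-0.67) or Valproate library 1 (-1.16). Nkd1 was at 15 and 18 with DZNep, 68 and 77 with Valproate and 45 and 57 with NC, and its call was lost with any 1 of the 4 libraries left out, at -2.20 to -1.95.

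Lgr5 and Ccnd2 were the WNT targets called higher with DZNep. Lgr5, the R-spondin receptor that marks intestinal stem cells, was at 74 and 68 with DZNep, 1 and 1 with Valproate and 0 and 0 with NC. The 2 DZNep libraries were the only 2 of the 22 in which Lgr5 exceeded 2. A gene had to reach 10 in 2 or more libraries to be tested, so Lgr5 entered only through the group where it is high. Its place among the 7 calls of the WNT list is therefore a description. The cyclin gene Ccnd2 was at 57 and 28 with DZNep, 6 and 9 with Valproate and 14 and 11 with NC, and its call was lost without DZNep library 1 (1.79) or Valproate library 1 (2.04). RefSeq promoter windows were available for 13 of the 20 genes, and the TCF and LEF core CTTTGAT, searched on both strands, was in 2 of 19 windows (10.5%), against 3.73% of all windows. The window of Sp5 (chr2:70474673-70474972, plus strand, GRCm38.p6) is shown with its match in capitals, which begins at position -104.
Sp5: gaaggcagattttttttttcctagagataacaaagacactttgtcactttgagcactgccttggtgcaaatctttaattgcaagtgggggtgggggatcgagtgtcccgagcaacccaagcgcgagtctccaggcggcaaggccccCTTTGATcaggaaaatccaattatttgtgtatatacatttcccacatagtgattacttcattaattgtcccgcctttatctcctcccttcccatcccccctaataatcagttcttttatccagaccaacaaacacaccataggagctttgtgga

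The NODAL targets called in the direct test were lowest with DZNep. NODAL signals through SMAD2 and SMAD3 and induces its own antagonists, LEFTY1 and LEFTY2. Of 18 genes of the pathway and the primitive streak, 4 were called higher with Valproate (22.2% of the list, against 10.8% of all genes called either way). In this list limma called 0 higher with DZNep, with 5 higher at an unadjusted p under 0.05. The list as a whole was balanced, with 9 genes on each side of 0. At an adjusted p under 0.05 without the fold limit, 5 were higher with Valproate and 2 with DZNep, the latter Foxh1 (0.64 ± 0.12 (limma adjusted p = 0.00197)) and Gdf3 (0.81 ± 0.23 (limma adjusted p = 0.0216)). Of all 17275 genes tested, 2138 were higher with Valproate and 1862 with DZNep at that limit, and 2888 were higher with DZNep at the unadjusted one. Without Valproate library 1 the 4 calls became 2. Lefty1 (ENSMUSG00000038793, chr1:180935022-180938400, plus strand, mm10) was at 92 and 113 with DZNep, 458 and 460 with Valproate and 669 and 1001 with NC. Lefty1 differed by -2.16 ± 0.48 (limma adjusted p = 0.00615) and fell by 2.99 on the log2 scale from NC with DZNep, and 25% of its sequence is shared. Lefty2 was at 320 and 241 with DZNep, 869 and 808 with Valproate and 1761 and 3240 with NC, a difference of -1.59 ± 0.43 (limma adjusted p = 0.0179) with Valproate between DZNep and NC. Skil, a repressor that SMAD signalling induces, was at 675 and 478 with DZNep, 1410 and 1297 with Valproate and 1389 and 1175 with NC, a difference of -1.25 ± 0.17 (limma adjusted p = 0.000221). Fgf8 was at 2 and 4 with DZNep, 19 and 10 with Valproate and 15 and 11 with NC, low throughout. Lefty2 lost its call without DZNep library 2 (-1.39), Valproate library 1 (-1.54) or Valproate library 2 (-1.64), and Fgf8 without DZNep library 1 (-1.57) or Valproate library 1 (-1.51).

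**Figure D5:**
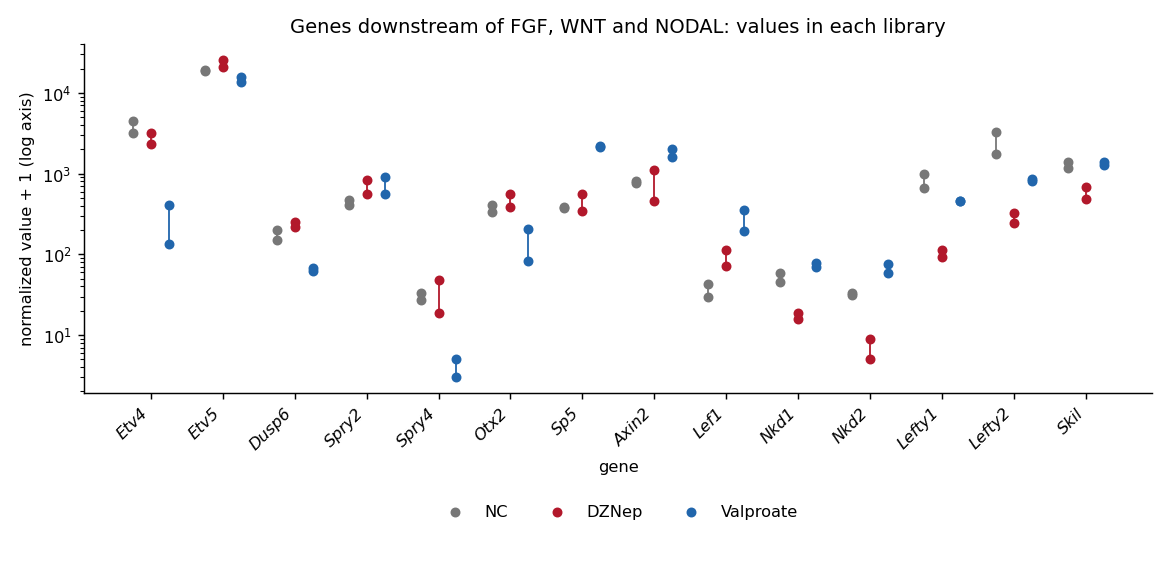
Normalized value + 1 (log axis) of 14 genes downstream of FGF, WNT or NODAL signalling, with 1 point for each library, a line joining the 2 libraries of a group, NC in grey, DZNep in red and Valproate in blue. Valproate is the low group at Etv4, Dusp6 and Spry4 and the high group at Sp5, and DZNep is the low group at Nkd1, Nkd2, Lefty1, Lefty2 and Skil.

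Pou5f1, Sox2 and Nanog, the core of the pluripotency network, were not called in the direct test. Pou5f1, which encodes OCT4, was at 32054 and 33724 with DZNep, 25663 and 27731 with Valproate and 28606 and 29454 with NC, a difference of 0.30 ± 0.09 (limma adjusted p = 0.0326) that is far under the fold limit. Sox2 was at 15924 and 12129 with DZNep, 17988 and 16436 with Valproate and 14112 and 10935 with NC, a difference of -0.31 ± 0.18 (limma adjusted p = 0.261). Nanog was at 92251 and 123367 with DZNep, 49312 and 75957 with Valproate and 44793 and 59405 with NC, and its DZNep values lay above all 4 others, at a difference of 0.80 ± 0.37 (limma adjusted p = 0.144). In the naive list of 26 genes, 2 were called each way (2 in all without Valproate library 1), Dppa3 and Socs3 with Valproate and Zfp42 and Zfp57 with DZNep. These 4 calls were 15.4% of the naive list, against 10.8% of all genes. Zfp57, a zinc finger protein that protects imprints, was at 19854 and 15958 with DZNep, 6970 and 8400 with Valproate and 7821 and 9304 with NC. Zfp57 differed by 1.22 ± 0.15 (limma adjusted p = 9.63e-05), and the DZNep libraries stood above both other groups. Zfp42, the naive marker REX1, was at 49540 and 33822 with DZNep, 18784 and 21977 with Valproate and 16469 and 20763 with NC, a difference of 1.01 ± 0.19 (limma adjusted p = 0.00221) that fell under the fold limit without DZNep library 1 (0.74) or Valproate library 1 (0.90). Socs3, a target and inhibitor of LIF signalling, was at 2345 and 2070 with DZNep, 6532 and 4738 with Valproate and 5456 and 3689 with NC, and its call was lost without Valproate library 1 (-1.10 (limma adjusted p = 0.0581)).

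Antigen presentation was split between the compounds gene by gene. TAP1 and TAP2 together form the transporter that loads peptides onto class I molecules, and their genes moved in opposite directions. Tap1, which overlaps the proteasome gene Psmb9 on the opposite strand, was at 522 and 629 with DZNep, 89 and 85 with Valproate and 64 and 65 with NC. Tap1 differed by 2.71 ± 0.31 (limma adjusted p = 6e-05), with DZNep far above the rest. Tap2 was at 1 and 3 with DZNep, 45 and 24 with Valproate and 4 and 4 with NC, all low values, and differed by -3.58 ± 0.71 (limma adjusted p = 0.00282) with Valproate as the high group. H2-K1, described above, was lowest with DZNep. Bst2, the interferon-induced protein tetherin, was at 427 and 314 with DZNep, 2964 and 1829 with Valproate and 760 and 615 with NC, a difference of -2.67 ± 0.37 (limma adjusted p = 0.000261). Of the 24 genes of this list, 4 were called each way, which became 4 calls in all without Valproate library 1. Among the rest of the 8 calls were Ddx58 and Oasl1 with DZNep and Stat2 with Valproate, by between 1.09 and 1.52 in size. Single libraries decided these 3. Without Valproate library 1, Ddx58 stood at 1.09, Oasl1 at 1.06 and Stat2 at -0.97, none of them called. Ddx58 was also lost without DZNep library 1 (0.79) and without Valproate library 2 (1.09), and Oasl1 without DZNep library 2 (1.20).

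The methionine cycle holds the known target of DZNep, and 4 of its 32 genes were called (12.5%, near the 10.8% of all genes). Ahcy was at 225 and 224 with DZNep, 392 and 436 with Valproate and 336 and 431 with NC. Ahcy was lower with DZNep in both libraries, at -0.88 ± 0.26 (limma adjusted p = 0.0268), which is under the fold limit, and 79.4% of its sequence is shared with other genes. Bhmt (ENSMUSG00000074768, chr13:93616675-93637961, minus strand, mm10), which makes methionine from homocysteine and betaine, was at 6976 and 9846 with DZNep, 1347 and 2244 with Valproate and 3311 and 2581 with NC. Bhmt differed by 2.25 ± 0.40 (limma adjusted p = 0.00134), and the annotation places Gm15622 on its opposite strand. Its neighbour in function Bhmt2 was at 921 and 1248 with DZNep, 435 and 524 with Valproate and 654 and 584 with NC, a difference of 1.17 ± 0.19 (limma adjusted p = 0.000712) that fell to 0.95 without DZNep library 2. Cth, which turns cystathionine into cysteine, was at 6290 and 6583 with DZNep, 2765 and 1656 with Valproate and 5607 and 4502 with NC. Cth differed by 1.59 ± 0.28 (limma adjusted p = 0.00135), and here Valproate was the group below NC. Gnmt, which uses up S-adenosylmethionine, was at 1 and 0 with DZNep, 19 and 11 with Valproate and 28 and 18 with NC and was called higher with Valproate. Of the 4 calls, 3 were higher with DZNep and 1 with Valproate, and Mat2a, which makes S-adenosylmethionine, was at 9208 and 8553 with DZNep, 6515 and 11384 with Valproate and 10700 and 15391 with NC.

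The chromatin complexes that the 2 compounds are known to affect had 2 of 30 Polycomb subunits and 2 of 30 deacetylases and corepressors called (6.67% of each list, under the 10.8% of all genes). Ezh2 was at 6912 and 8923 with DZNep, 8389 and 11077 with Valproate and 9031 and 11077 with NC, a difference of -0.30 ± 0.19 (limma adjusted p = 0.299). Eed, its partner, was at 7760 and 7344 with DZNep, 5871 and 5607 with Valproate and 5914 and 6170 with NC, a difference of 0.40 ± 0.13 (limma adjusted p = 0.0426). Suz12 was at 11521 and 4421 with DZNep, 23840 and 9031 with Valproate and 9432 and 5616 with NC, a difference of -1.04 ± 0.55 (limma adjusted p = 0.207). At Suz12 DZNep was below Valproate within each replicate number, and the fit with a replicate block called it. Of the Polycomb subunits, Bmi1 was called higher with DZNep at 1.13 ± 0.24 (limma adjusted p = 0.00419) and Yaf2 with Valproate at -1.06 ± 0.27 (limma adjusted p = 0.0129), and both calls were lost without DZNep library 1 or without Valproate library 1, with Bmi1 at 0.69 and 0.99. Without DZNep library 2 the list held 4 calls. Hdac1, with 62.7% shared sequence, was at 6477 and 5996 with DZNep, 8862 and 9304 with Valproate and 8188 and 9211 with NC, a difference of -0.54 ± 0.11 (limma adjusted p = 0.00357). Hdac2 was at 13597 and 10924 with DZNep, 8171 and 6170 with Valproate and 5685 and 5871 with NC, a difference of 0.78 ± 0.21 (limma adjusted p = 0.0155). Both differences were under the fold limit. Hdac11 was at 55 and 34 with DZNep, 503 and 171 with Valproate and 134 and 109 with NC, and was called higher with Valproate at -2.73 ± 0.50 (limma adjusted p = 0.00168). Hdac9 was at 10 and 0 with DZNep, 28 and 39 with Valproate and 16 and 31 with NC, low in all groups. Hdac9 lost its call without DZNep library 2 (-1.63), Valproate library 1 (-3.59) or Valproate library 2 (-3.13).

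Lists tied to these marks had members on both sides. Of 41 developmental regulators known as Polycomb targets, 4 were called higher with DZNep and 4 with Valproate (19.5% of the list, against 10.8% of all genes). Wnt6, a WNT ligand, was at 269 and 273 with DZNep, 25 and 31 with Valproate and 33 and 30 with NC, a difference of 3.24 ± 0.31 (limma adjusted p = 2.15e-05), and Msx1, a homeobox gene of BMP signalling, was at 11 and 27 with DZNep, 223 and 111 with Valproate and 137 and 60 with NC, a difference of -3.11 ± 0.52 (limma adjusted p = 0.000966). Of 29 genes known to rise with histone deacetylase inhibition, 3 were called higher with Valproate and 1 with DZNep (13.8%, near the 10.8% of all genes), and 2 calls were left without DZNep library 2 or Valproate library 1. Clu, the secreted chaperone clusterin, was at 42 and 35 with DZNep, 261 and 289 with Valproate and 30 and 66 with NC. Clu differed by -2.81 ± 0.31 (limma adjusted p = 5.97e-05), with both Valproate libraries above the other 4. Gsn, the actin-severing gelsolin, was at 310 and 236 with DZNep, 841 and 473 with Valproate and 77 and 47 with NC, called up with both compounds and further with Valproate (-1.22 ± 0.39 (limma adjusted p = 0.036)), but not without DZNep library 1 (-1.41), DZNep library 2 (-1.02) or Valproate library 1 (-0.80). H1f0, a linker histone often used as a sign of deacetylase inhibition, was at 2026 and 1824 with DZNep, 1508 and 2710 with Valproate and 2168 and 2482 with NC, and the compounds overlapped. Hist3h2a was called higher with Valproate and Tuba8 with DZNep, the latter lost with any 1 library left out, at 0.92 to 1.27.

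Of 17 writers and erasers of DNA methylation 3 were called (17.6%, against 10.8% of all genes), Tet3 and Dnmt3a with Valproate and Tet2 with DZNep, and 1 call was left without DZNep library 1 or Valproate library 1. Tet3, a dioxygenase that oxidizes 5-methylcytosine, was at 158 and 159 with DZNep, 549 and 679 with Valproate and 580 and 523 with NC. Tet3 differed by -1.94 ± 0.33 (limma adjusted p = 0.00113), and Valproate overlapped NC. Tet2, its relative, was at 6368 and 2965 with DZNep, 1175 and 2265 with Valproate and 2478 and 2596 with NC, called the other way at 1.41 ± 0.41 (limma adjusted p = 0.0235), which was lost without DZNep library 1 (0.86) or Valproate library 1 (0.94). Among 32 imprinted genes, 4 were called higher with Valproate and 1 with DZNep (15.6% of the list, against 10.8% of all genes). Plagl1, a zinc finger factor expressed from the paternal copy, was at 700 and 594 with DZNep, 2736 and 2226 with Valproate and 1664 and 1663 with NC, a difference of -1.93 ± 0.18 (limma adjusted p = 2.1e-05). Cdkn1c, the maternally expressed cell cycle inhibitor p57, was at 354 and 456 with DZNep, 143 and 119 with Valproate and 56 and 82 with NC, a difference of 1.62 ± 0.30 (limma adjusted p = 0.00183). Magel2 was listed at 0 in both DZNep libraries, at 38 and 27 with Valproate and at 7 and 8 with NC. Gnas and Igf2r were the other 2 on the Valproate side, and Gnas stood at -0.98 without DZNep library 1 and Igf2r at -0.92 and -0.86 without DZNep library 2 and Valproate library 1. Of 33 germline genes held silent by DNA methylation, 1 was called each way (6.06%, under the 10.8% of all genes). Dmc1, a meiotic recombinase, was at 41 and 51 with DZNep, 254 and 223 with Valproate and 178 and 183 with NC, a difference of -2.35 ± 0.21 (limma adjusted p = 1.26e-05). Ddx4, the germ cell helicase VASA, was at 496 and 343 with DZNep, 205 and 191 with Valproate and 414 and 297 with NC, a difference of 1.06 ± 0.20 (limma adjusted p = 0.00186) that fell to 0.79 without DZNep library 1.

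Genes of amino acid supply and of glycolysis that passed the fold limit were lower with DZNep. Of 31 genes of the integrated stress response and amino acid supply, 4 were called higher with Valproate (12.9% of the list, near the 10.8% of all genes) and limma called 0 higher with DZNep. At an adjusted p under 0.05 without the fold limit, 9 were higher with Valproate and 2 with DZNep, the latter Sesn2 (0.47 ± 0.14 (limma adjusted p = 0.0289)) and Slc7a3 (0.90 ± 0.25 (limma adjusted p = 0.0215)). Of all 17275 genes tested, 2138 were higher with Valproate and 1862 with DZNep at that limit, and 2888 with DZNep at an unadjusted p under 0.05. The 4 calls became 2 without Valproate library 1 and 9 without Valproate library 2. Against NC, 15 of the 31 were called down with DZNep and 8 with Valproate. Of all genes tested, 6.14% were called down with DZNep and 2.55% with Valproate. Phgdh, the first enzyme of serine synthesis, was at 1580 and 1650 with DZNep, 4567 and 4333 with Valproate and 7894 and 6544 with NC. Phgdh differed by -1.46 ± 0.14 (limma adjusted p = 1.81e-05), in the order NC, Valproate, DZNep with no overlap, and 74.1% of its sequence is shared. Slc1a4, a transporter of serine and alanine, was at 492 and 535 with DZNep, 2824 and 1409 with Valproate and 4760 and 2824 with NC, a difference of -1.96 ± 0.29 (limma adjusted p = 0.000399). Psat1 and Aldh18a1 completed the 4, and without Valproate library 1 they stood at -0.60 and -0.94 and were not called. Of 31 hypoxia and glycolysis genes, 5 were called higher with Valproate (16.1%) and limma called 0 higher with DZNep, with 2 higher at an unadjusted p under 0.05, and without DZNep library 2 the 5 calls became 2. Egln3, an oxygen sensor, was at 135 and 175 with DZNep, 411 and 616 with Valproate and 670 and 482 with NC, a difference of -1.70 ± 0.29 (limma adjusted p = 0.00103). The other 4, Aldoc, Slc2a3, Pfkp and Tpi1, each lost their call with at least 1 library left out. Aldoc stood at -1.04, -1.39 and -1.86 without DZNep library 2, Valproate library 1 and Valproate library 2, Slc2a3 at -1.11 and -1.21 without DZNep library 2 and Valproate library 1, Pfkp at -0.98 without Valproate library 1, and Tpi1 at -0.90 and -0.64 without DZNep library 2 and Valproate library 2.

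Matrix, neuronal and early response genes each had members on both sides, with 2 of 34 matrix genes called higher with DZNep and 3 with Valproate (14.7%), 3 and 4 of 32 neuronal genes (21.9%) and 3 and 2 of 32 early response genes (15.6%). The share over all genes was 10.8%. Col1a1, the main fibrillar collagen chain, was at 327 and 228 with DZNep, 14 and 25 with Valproate and 24 and 24 with NC, a difference of 3.79 ± 0.34 (limma adjusted p = 1.29e-05), and this gene is also one of the fibroblast markers read above. Lamb2, a laminin chain of basement membranes, was at 774 and 687 with DZNep, 4496 and 2639 with Valproate and 3688 and 3094 with NC, a difference of -2.24 ± 0.28 (limma adjusted p = 0.000119). Syt7, a calcium sensor of vesicle release, was at 20 and 17 with DZNep, 155 and 139 with Valproate and 241 and 129 with NC, a difference of -2.93 ± 0.31 (limma adjusted p = 3.77e-05) with Valproate inside the NC range. Kcnh2, a potassium channel, was at 231 and 257 with DZNep, 811 and 615 with Valproate and 605 and 609 with NC, a difference of -1.53 ± 0.15 (limma adjusted p = 2.07e-05). On the DZNep side, the neuronal genes Vgf, Caly and Stmn3 differed by 3.69 ± 1.21 (limma adjusted p = 0.0424), 2.56 ± 0.71 (limma adjusted p = 0.0199) and 1.48 ± 0.38 (limma adjusted p = 0.0144), and each lost its call when single libraries were left out. Vgf stood at 3.80, 3.58 and 2.39 without DZNep library 1, DZNep library 2 and Valproate library 1, Stmn3 at 1.46 and 1.45 without DZNep library 2 and Valproate library 1, and Caly between 2.44 and 2.69 without any 1 of the 4. Fosb, an immediate early gene, was at 73 and 20 with DZNep, 2 and 3 with Valproate and 6 and 9 with NC, a difference of 3.51 ± 0.55 (limma adjusted p = 0.000617). Myc was at 230 and 161 with DZNep, 12 and 26 with Valproate and 4 and 19 with NC, a difference of 3.37 ± 0.95 (limma adjusted p = 0.0212) in which both DZNep libraries were the highest of the 6. Myc lost its call without DZNep library 1 (3.11), DZNep library 2 (3.62) or Valproate library 1 (2.84), although the direction held. The early genes Klf10 and Ier5 were higher with Valproate, at -1.25 ± 0.32 (limma adjusted p = 0.0127) and -1.24 ± 0.33 (limma adjusted p = 0.0166). Klf10 was lost without DZNep library 2 (-0.77) or Valproate library 1 (-0.93), and Ier5 without DZNep library 1 (-0.78) or Valproate library 2 (-0.99). Mt3, a metallothionein, was at 22 and 34 with DZNep, 160 and 232 with Valproate and 87 and 69 with NC, a difference of -2.77 ± 0.43 (limma adjusted p = 0.000583). Of 41 lysosome and autophagy genes, 2 were called each way (9.76%, near the 10.8% of all genes). Among them, Glb1 was at 1082 and 923 with DZNep, 3085 and 2254 with Valproate and 4605 and 3259 with NC, higher with Valproate at -1.40 ± 0.25 (limma adjusted p = 0.00146). Gusb was at 1212 and 1202 with DZNep, 472 and 594 with Valproate and 1389 and 1143 with NC, higher with DZNep at 1.19 ± 0.14 (limma adjusted p = 8.04e-05).

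A smaller number of genes moved the same way with both compounds. Against the shared NC libraries, 208 genes were called up with both compounds (1.2% of the genes tested), which is 208 of the 910 genes called up with DZNep and of the 471 called up with Valproate. The number called down with both was 189 (1.09%), of 1060 and 441. Without NC library 1 the 397 genes called against NC with both compounds became 191, and without Valproate library 2 they became 254. The median change of the 208 genes was 2.07 with DZNep and 1.93 with Valproate, and that of the 189 genes was -1.84 and -1.68. The direct test still told the compounds apart at 36 of the 208, where DZNep was further up at 25 and Valproate at 11, and at 21 of the 189. The 95% interval of the direct difference lay within 1 log2 unit on both sides of 0 for 56 of the 208 and 70 of the 189.

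Dnmt3l and Gabra4 led the shared rises. Dnmt3l, the cofactor of the de novo DNA methyltransferases, whose exons overlap Aire on the opposite strand, was at 1487 and 612 with DZNep, 442 and 536 with Valproate and 9 and 40 with NC. Both compounds lay far above NC at Dnmt3l, and they differed from each other by 0.97 (95% interval -1.01 to 2.95). Gabra4, a subunit of the GABA-A receptor, was at 409 and 727 with DZNep, 321 and 727 with Valproate and 10 and 11 with NC. Its direct difference of 0.17 (95% interval -3.19 to 3.54) leaves a wide range. Kcnk2, a potassium channel, was at 90 and 99 with DZNep, 116 and 120 with Valproate and 6 and 9 with NC, a direct difference of -0.32 (95% interval -1.65 to 1.02). Pla2g2f, a secreted phospholipase, was at 300 and 276 with DZNep, 204 and 225 with Valproate and 30 and 20 with NC, a direct difference of 0.42 (95% interval -0.43 to 1.28). Crispld2, a secreted protein, was at 328 and 209 with DZNep, 95 and 77 with Valproate and 12 and 7 with NC, and Ly6c1, a surface antigen with 57.1% shared sequence, was at 247 and 183 with DZNep, 92 and 95 with Valproate and 16 and 7 with NC. These last 2 were higher with DZNep in both libraries without passing the test, at 1.60 (95% interval -0.11 to 3.32) and 1.18 (95% interval -0.01 to 2.37), and both were called with a pseudocount of 10.

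Nphs1 gave the closest match of the shared falls. Nphs1, which encodes nephrin of the kidney filter, was at 134 and 292 with DZNep, 191 and 205 with Valproate and 2608 and 2175 with NC. DZNep and Valproate overlapped, both far below NC, and the direct difference was 0.00 (95% interval -0.73 to 0.73). Serpinf1, a secreted serpin, was at 9 and 8 with DZNep, 13 and 12 with Valproate and 229 and 214 with NC, a direct difference of -0.51 (95% interval -1.81 to 0.80). Tgfbi, a matrix protein, was at 48 and 29 with DZNep, 63 and 16 with Valproate and 813 and 296 with NC, a direct difference of 0.22 (95% interval -1.15 to 1.59). Cpt1b, the muscle form of the fatty acid importer of mitochondria with 93.7% shared sequence, was at 27 and 6 with DZNep, 20 and 9 with Valproate and 181 and 146 with NC, a direct difference of -0.05 (95% interval -1.49 to 1.39). Cox6a2, a muscle subunit of cytochrome oxidase, was at 88 and 9 with DZNep, 12 and 1 with Valproate and 317 and 299 with NC. Within each replicate number DZNep was above Valproate there. The compounds overlapped at Cox6a2, where the libraries of each lay far apart, and the direct difference was 2.55 (95% interval 0.58 to 4.51), called without DZNep library 2 (4.13) and without Valproate library 1 (3.90). Serpinh1, the collagen chaperone HSP47, was at 1312 and 959 with DZNep, 941 and 847 with Valproate and 4328 and 3096 with NC, low with both compounds and at a direct difference of 0.33 (95% interval -0.25 to 0.91).

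A few more genes were given whatever their result, and the direct test called none of them. Dnmt3b, a de novo DNA methyltransferase gene, was at 2244 and 1980 with DZNep, 1061 and 1870 with Valproate and 630 and 1277 with NC, with DZNep higher in both libraries at 0.58 ± 0.59 (limma adjusted p = 0.533). Dazl, a germ cell RNA-binding gene, was at 14700 and 6955 with DZNep, 10926 and 5402 with Valproate and 6257 and 3591 with NC. The compounds overlapped at Dazl, though DZNep was above Valproate within each replicate number. Hexim1, an inhibitor of transcription elongation, was at 3085 and 2393 with DZNep, 1142 and 2039 with Valproate and 1181 and 1607 with NC, and Col4a1, a basement membrane collagen, was at 582 and 595 with DZNep, 190 and 318 with Valproate and 257 and 265 with NC. DZNep was higher in both libraries at Hexim1 and Col4a1, at 0.83 ± 0.34 (limma adjusted p = 0.0985) and 1.26 ± 0.49 (limma adjusted p = 0.0817), and Hexim1 was called without Valproate library 2, at 1.25. Gata6, a primitive endoderm factor, was at 170 and 367 with DZNep, 108 and 144 with Valproate and 192 and 115 with NC. In the 2-cell stage list of 20 genes, 17 were lower with DZNep, beside 8956 of all 17275 genes. The median difference of the list was -1.86, but that median ran from -2.52 to -0.05 under the 11 alternative settings. The latter came from the fit of only genes above 0 in all libraries, which held just 3 of the 20. In this list 2 genes were called (10%, near the 10.8% of all genes). Its member Zscan4c, with 91.5% shared sequence, was at 33 and 21 with DZNep, 94 and 153 with Valproate and 64 and 66 with NC, at -2.14 ± 1.27 (limma adjusted p = 0.258). The 2 called genes were Zscan4b, listed at 0 in both DZNep libraries, and Tmem92, and both lost their call with any 1 of the 4 libraries left out.

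Some assignments are uncertain because reads could come from elsewhere. Besides the genes marked above, shared sequence was 32.3% for Etv5, 32.1% for Hist3h2a, 31.1% for Bmi1, 30.6% for Entpd2, 28.4% for Cdkn1c, 24.1% for Hdac11, 22.7% for Pou5f1 and 95.1% for Zscan4b. Exons of Gabra4, Cox6a2, Col4a1, Pfkp and Tpi1 overlap those of Gabrb1, Itgad, Col4a2, Pitrm1 and Spsb2 on the opposite strand. Exons of Nphs1, Otx2, Dnmt3a, Tspan2, Gnas, Axin2, Lef1, Lin28a, Kcnk2, Ccnd2, Tap2 and Plagl1 overlap noncoding or predicted genes there. On the same strand, Entpd2, Glb1 and Hist3h2a share exon positions with Npdc1, Tmppe and Trim17.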

How the data were processed

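Total RNA of E14 cells was enriched for poly(A) RNA and sequenced by the authors. Per the labels, Bowtie2 2.2.5 and RSEM were used with mm10. The deposited values are scores, here read counts per gene that the authors normalized with EDASeq at its full-quantile setting, per the methods, and rounded. Those methods name none of the compounds and were assumed to apply here. Such scaling hides depth, so no detection limit or counting interval was given, and a change common to most genes could not be seen. The second deposited table, of group means, was not used.

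Groups and replicate numbers came from the labels. The log2(value + 1) of 17275 of the 18487 genes, those that reached 10 in 2 or more of the 22 libraries, entered limma 3.58.1 (lmFit, contrasts.fit, eBayes with a trend) under R 4.3.3. The 11 group means were fitted to all libraries, which left 11 residual degrees of freedom, and p-values were two-sided and adjusted by the Benjamini-Hochberg method over all genes tested. In a test on simulated data for the direct comparison, 17275 genes were drawn and 200 changed. The fit recovered 78% of the changes of 2 log2 units and 90% of those of 3, with 6 false calls.

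Members, gene lists and naming rules were chosen with earlier results of these data known. Genes were named by the 8 largest fold changes and 4 lowest p-values each way among called genes above 0 in all libraries, with a larger group mean of at least 100, no overlap of libraries and no clone, gene-model, olfactory or vomeronasal receptor symbol. The 4 most opposite and 6 most alike genes each way, the most different called member of each list and a fixed set followed. Members of lists beyond these were named after their values were seen, and a few genes that met the rules are not reported here. Lists are described by counts and medians, with no set test. Library strand was not stated, so overlapping genes on opposite strands cannot be told apart. Positions and shared 31-base sequence came from GENCODE M21 (16795 of 17275 symbols found), and promoters from RefSeq (GRCm38.p6). Alternatives covered the pseudocount (10), the filter, the libraries fitted, a replicate block, median-ratio rescaling, the variance trend and each replicate left out. Figures were drawn in Python 3.11.15 with matplotlib 3.10.9.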

Additional observations from a re-analysis of the deposited data

How the results depend on the processing

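The test of DZNep directly against Valproate gave 1862 calls with a pseudocount of 10, 1892 without the filter, 1866 after median-ratio rescaling and 1876 without a variance trend, against 1861. Fitting only the 4 libraries compared left 0 calls by limma, with 3501 genes at an unadjusted p under 0.05 and a lowest adjusted p of 0.055. With each library of the 2 compounds left out in turn, calls ranged from 1153 to 1993. The range was 1187 to 2357 for DZNep against NC (1970), 514 to 798 for Valproate against NC (912) and 191 to 397 for genes called against NC with both compounds (397). Fits of only the 2 groups gave 97 and 75 calls against NC with DZNep and Valproate, and the fit of the 3 groups gave 50 shared calls. A fit limited to genes above 0 in all libraries and one with the mean of the 8 other compounds as reference were chosen after seeing the data. The first gave 1813 direct calls, and the second gave 1496 for Valproate, 2232 for DZNep and 553 for both. The 24 genes called in opposite directions were between 9 and 32 with each replicate left out.

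Replicate numbers were shared across groups, but the labels do not say what they mark. Deviations from the group means correlated at 0.234 between DZNep and Valproate libraries of the same number. Over all pairs of groups this correlation was positive, from 0.053 to 0.298 with a median of 0.196. The main fit did not model the replicate number, so its standard errors and p-values include this shared shift. With the replicate block, calls were 2403 for DZNep directly against Valproate, 2605 for DZNep against NC, 1487 for Valproate against NC and 624 for genes called against NC with both compounds. The block ended none of the 1861 direct calls, and of the named genes it added Suz12, Col4a1 and Cox6a2.

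Of 182 genes followed in the direct comparison, 151 of them called, 0 had a call reversed under any alternative. When 1 library was left out, 71 lost their call. Differences of some genes that were not called did change sign, such as Nphs1 (-0.56 to 0.56) and Tgfbi (-0.74 to 1.17). The fit of the 4 libraries ended all 151 calls, and the cause of the losses was not tested. Depth per library is unknown, and with 2 libraries per group small differences could not be told from the spread.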
